A study of Rattus norvegicus with 252 samples.

Results

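The genes described here are 152 of the 32883 genes listed in a brain RNA sequencing study of rats, and they were chosen by their measured level, which was higher at 6 than at 2 months in 4 brain tissues of wild-type (WT) animals. The choice used the 80 WT libraries of 2 and 6 months. A gene was taken when its median was at least 0 log2 CPM (read counts scaled to a common library size) in each tissue, when its highest and lowest tissue medians at 2 months lay less than 2 log2 units apart, and when its median at 6 months exceeded that at 2 months by at least 0.15 log2 units in striatum, cortex, hippocampus and cerebellum alike. Of the listed genes, 11808 met the first 2 conditions and serve below as the background for levels and spread. The genes were then followed in heterozygous Q130 knock-in rats of 2, 6 and 12 months and in WT rats of 12 months.

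The Q130 knock-in allele carries a lengthened glutamine-coding repeat and models Huntington disease, an inherited disorder in which the projection neurons of the striatum are lost early. Between 2 and 6 months a rat passes from young adulthood to full maturity, and brain tissue of that period is known for continued myelination, refinement of synapses and slow changes of glial cells. A transcript that moves in the same direction in forebrain and cerebellum, which differ in their neurons, is not restricted to the cell types of 1 region. Names of the genes are not given with their identifiers in the sources used here, so the genes are described by their identifiers or by their rank, with rank 1 for the gene whose smallest WT difference over the 4 tissues was largest.

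All animals were Long Evans rats, and each of 60 animals gave all 4 tissues. WT and heterozygous Q130 rats of 2, 6 and 12 months made up 6 groups of 10 animals, each with 5 females and 5 males, and 240 study libraries in all. Batch 1 held every study library of 2 and 6 months, and batch 2 every one of 12 months. Another 12 libraries were labelled as batch 2 repeats of the striatum of batch 1 animals. The labels do not say whether rats of 1 age shared a litter or a day of dissection, so an effect of age and a difference between such cohorts cannot be told apart. In a piece of tissue, fewer cells of a type and less RNA per cell cannot be told apart either.

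Estimated counts summed to between 25.3 M and 50.8 M per library, where M stands for the SI prefix mega, with a median of 34.3 M. Of the 240 study libraries, 237 resembled the other libraries of their labelled tissue most, by the median correlation over 13950 genes. The exceptions were 2 libraries of a single Q130 animal of 6 months and 1 of a Q130 female of 12 months. The library labelled striatum of that 6-month male (replicate 1) correlated at 0.987 with hippocampus libraries and at 0.925 with striatum libraries. The library labelled hippocampus of the same animal (replicate 5) correlated at 0.982 with striatum libraries and at 0.917 with hippocampus libraries. At 12 months, female replicate 2 of the Q130 rats had a library labelled striatum that correlated at 0.975 with hippocampus and at 0.955 with striatum libraries. With 6 others, these formed a set of 9 libraries, 8 of them Q130, whose median correlation with their tissue was at most 0.962, against at least 0.973 for the rest. Values below include these 9 libraries unless stated, and several of the results are also given without them.

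In WT rats, the values that chose the genes had a median difference between 6 and 2 months of 0.34 log2 units in striatum, 0.34 in cortex, 0.30 in hippocampus and 0.29 in cerebellum. These values are a description, since the choice used them. The smallest WT difference over the tissues was 0.1504 for the gene just inside the threshold, followed by 0.1508 and 0.1515, and just outside it lay 3 genes at 0.1499, 0.1496 and 0.1493, so that the limit cuts through a continuous range. At the other end, rank 1 had a smallest difference of 1.02 and rank 8 one of 0.57.

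The mean log2 CPM of the 152 genes gave 1 value per library. For WT libraries of 2 and 6 months this mean is a description, since they chose the genes. In WT striatum this mean lay between 3.64 and 3.74 at 2 months (median 3.70), between 3.93 and 4.15 at 6 months (median 4.11) and between 3.97 and 4.14 at 12 months (median 4.08). In Q130 striatum it lay between 3.63 and 3.77 at 2 months (median 3.71), between 3.83 and 4.21 at 6 months (median 4.01) and between 3.98 and 4.20 at 12 months (median 4.11). All 10 Q130 libraries of 6 months and all 10 of 12 months were above the highest library of 2 months. Without libraries that stood apart, the Q130 striatal ranges began at 3.96 at 6 months and at 4.10 at 12 months.

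The other Q130 tissues, which the choice of genes did not use, also showed no overlap between 2 and 6 months. In Q130 cortex the mean rose from a range of 3.43 to 3.56 at 2 months to one of 3.67 to 3.85 at 6 months. In Q130 hippocampus the range was 3.47 to 3.64 at 2 months and 3.75 to 4.09 at 6 months. The hippocampal range at 6 months ended at 3.85 without libraries that stood apart. In Q130 cerebellum the libraries of 2 months ended at 3.706 and those of 6 months began at 3.707, and the 2 highest libraries of 2 months were among the 9 that stood apart. Without them the cerebellar range at 2 months ended at 3.56.

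**Figure D1:**
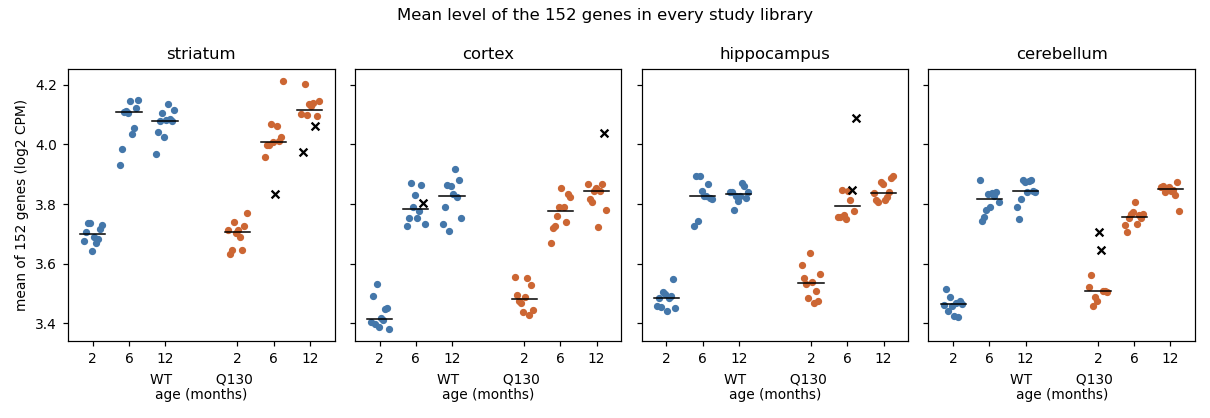
Each point is 1 study library, with the mean log2 CPM of the 152 genes on the vertical axis and age in months within genotype (WT blue, Q130 orange) on the horizontal axis, for 4 tissues; bars are medians of 10 libraries and crosses mark the 9 libraries that stand apart. In every tissue and genotype all 10 libraries of 6 months lie above all 10 of 2 months. The WT libraries of these ages chose the genes, so only the Q130 separation is independent of the choice.

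In Q130 rats, whose libraries the choice had not used, between 27 and 77 of the 152 genes were higher at 6 than at 2 months in a tissue and 0 were lower. In striatum 75 of 152 genes were higher and 0 lower by edgeR's quasi-likelihood test at an adjusted p under 0.05 over all genes, where 4.36% of the 15537 genes tested were higher and 3.3% lower. In cortex 77 were higher and 0 lower, against 3.92% and 4.94% of all genes. In hippocampus 27 were higher and 0 lower, against 0.607% and 0.445%, and in cerebellum 37 were higher and 0 lower, against 2.54% and 4.17%. The shares of these genes called higher, 49.3%, 50.7%, 17.8% and 24.3%, were above those of all genes in every tissue.

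The size of the change was modest. The median log2 fold change of the 152 genes in Q130 rats was 0.30 in striatum, 0.27 in cortex, 0.26 in hippocampus and 0.20 in cerebellum, while the median over all genes tested was 0.01, 0.01, 0.00 and 0.00. Estimates were above 0 for 138, 145, 143 and 128 of the 152 genes, against 53.7%, 52%, 49.7% and 49.4% of all genes. Genes whose 10 libraries of 6 months all exceeded all 10 of 2 months numbered 6 in striatum, 8 in cortex, 6 in hippocampus and 4 in cerebellum, against 0.283%, 0.2%, 0.0968% and 0.371% of all genes.

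Leaving out the libraries that stood apart moved the counts upward. Without 1 library the striatal count became 94 of 152 (9.76% of all genes), without 2 the hippocampal count became 47 (1.99%), and without 2 the cerebellar count became 74 (7.45%). No library of the Q130 cortex at 2 or 6 months was among them. The hippocampal count also moved with single libraries, to 17 without any one of 2-month female replicate 3, 2-month male replicates 3 and 5 or 6-month female replicate 3, and to 46 without 6-month male replicate 5. In the fits that gave 17, in the order named, 68, 60, 58 and 58 of all genes were higher, against 94 in the full fit. The count over all genes thus fell as well.

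Counts summed over the 4 tissues of an animal gave 1 value per rat, 10 rats of each age. In these sums 100 of the 152 genes were higher at 6 months and 0 lower, against 8.33% higher and 8.72% lower of the 17360 genes tested. The median over the 152 was 0.24 on the log2 scale. Without the animals of the libraries that stood apart the count was 95 (8.17%).

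By tissue, 48 genes were called higher in none of the 4 Q130 tissues, 35 in 1, 38 in 2, 19 in 3 and 12 in all 4. Among the 14684 genes tested in every tissue, 8.75% were called higher in at least 1 tissue, 2.21% in at least 2 and 0.157% in all 4, so 12 of the 23 genes called in all 4 Q130 tissues were among the 152. Without the libraries that stood apart, 31 of the 152 were called in all 4 tissues (0.421% of all genes) and 39 in none. The tissues came from the same rats, so calls in several tissues are not independent of each other. Estimates were higher in all 4 tissues for 117 genes, against 14.5% of all genes, and lower in all 4 for 1.

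Large WT differences went with larger Q130 changes only in part. The 20 genes of highest rank had median Q130 log2 fold changes of 0.53, 0.48, 0.51 and 0.39 in striatum, cortex, hippocampus and cerebellum, and the other 132 had 0.29, 0.26, 0.24 and 0.18. Of the 20, however, 11, 13, 7 and 10 were called higher, and the lowest of their estimates were -0.08, -0.17, -0.11 and -0.53. Across the 152 genes, which are not independent replicates, the WT difference and the Q130 log2 fold change had Pearson correlations of 0.59, 0.49, 0.53 and 0.34. The Q130 change was the smaller one for 95, 110, 100 and 118 genes, in values where the WT side had been selected for size.

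**Figure D2:**
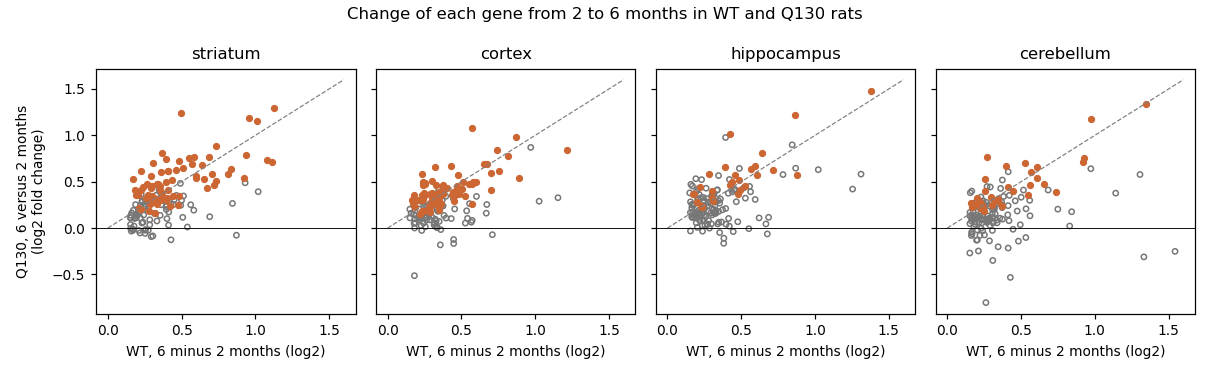
Each point is 1 of the 152 genes, with the WT difference of medians between 6 and 2 months (log2) that chose it on the horizontal axis and its Q130 log2 fold change from edgeR on the vertical axis, for 4 tissues; filled points passed the test in Q130 rats and the dashed line marks equal change. Most points lie above 0, and 75, 77, 27 and 37 are filled.

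When the same rule was applied to the 80 Q130 libraries of 2 and 6 months it chose 164 of the 11790 genes that met its level and range conditions. Of these, 64 were shared with the 152, which is 42.1% of the WT choice and 39% of the Q130 choice.

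Only 2 identifiers that rose and 2 that fell are named, since the sources pair no names with them. They are the first 2 by rank that were called higher in all 4 Q130 tissues and the first 2 others by rank that were called lower in any comparison of Q130 ages, and they were picked after the values had been seen. ENSRNOG00000015763 (rank 6) was higher in all 4 Q130 tissues. In Q130 striatum its level lay between 8.61 and 14.2 CPM at 2 months (median 12.3) and between 23.2 and 33.7 CPM at 6 months (median 29.0). The libraries of the 2 ages did not overlap, and the change was 1.30 ± 0.09 (log2, SE, edgeR adjusted p = 9.6e-08).

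In Q130 hippocampus the same gene lay between 5.20 and 10.5 CPM at 2 months (median 7.03) and between 14.5 and 34.5 CPM at 6 months (median 19.2), again without overlap. Its change there was 1.48 ± 0.15 (log2, SE, edgeR adjusted p = 3.4e-05), and it was 1.37 without 6-month male replicate 5, the library that resembled striatum. In Q130 cerebellum, where the median went from 15.05 to 34.5 CPM, the log2 fold change was 1.17 ± 0.14 (SE, adjusted p = 2.9e-05). In Q130 cortex, where ENSRNOG00000015763 had its highest level at 2 months (median 24.4 CPM), it reached a median of 40.0 CPM and changed least, by 0.69 ± 0.07 (SE, adjusted p = 1.0e-06). The cortex was thus the tissue with the highest level and the smallest rise.

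At 12 months the ENSRNOG00000015763 medians in Q130 rats were 28.4 CPM in striatum, 35.9 in cortex, 22.4 in hippocampus and 28.0 in cerebellum. WT medians at 12 months were 27.1, 37.0, 20.4 and 29.1 CPM. The Q130 medians of 12 months were thus above those of 2 months in every tissue. Single Q130 libraries of 12 months went down to 7.63 CPM in striatum and 18.2 CPM in cortex, below the lowest of 2 months. Both came from 1 rat and were among the libraries that stood apart, and the next lowest stood at 24.6 and 30.7 CPM. In the cerebellum the gene was lower at 12 than at 6 months, by 0.25 ± 0.08 (log2, SE, edgeR adjusted p = 0.026).

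ENSRNOG00000003253 (rank 7) was the most abundant in WT striatum of the 20 genes of highest rank. In Q130 cortex it lay between 158 and 222 CPM at 2 months (median 182) and between 296 and 376 CPM at 6 months (median 337), with no overlap, and its change was 0.85 ± 0.06 (log2, SE, edgeR adjusted p = 1.8e-09). In Q130 striatum the medians were 320 CPM at 2 and 615 CPM at 6 months, where the lowest library of 6 months, at 347 CPM, lay inside the 2-month range that ended at 390 CPM. The changes in striatum, hippocampus and cerebellum were 0.89 ± 0.11, 0.81 ± 0.11 and 0.66 ± 0.09 (log2, SE, adjusted p = 4.5e-05, 0.00057 and 7.9e-05). Leaving out single libraries took the striatal value to between 0.84 and 0.95, highest without 6-month male replicate 1, the library that resembled hippocampus. At 12 months its Q130 medians were 633, 348, 357 and 297 CPM in striatum, cortex, hippocampus and cerebellum, close to the WT medians of 653, 351, 355 and 282 CPM. At WT 2 months, on the TPM scale, which adjusts for transcript length, ENSRNOG00000003253 stood at a median of 444 in striatum and ENSRNOG00000015763 at 33.2.

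**Figure D3:**
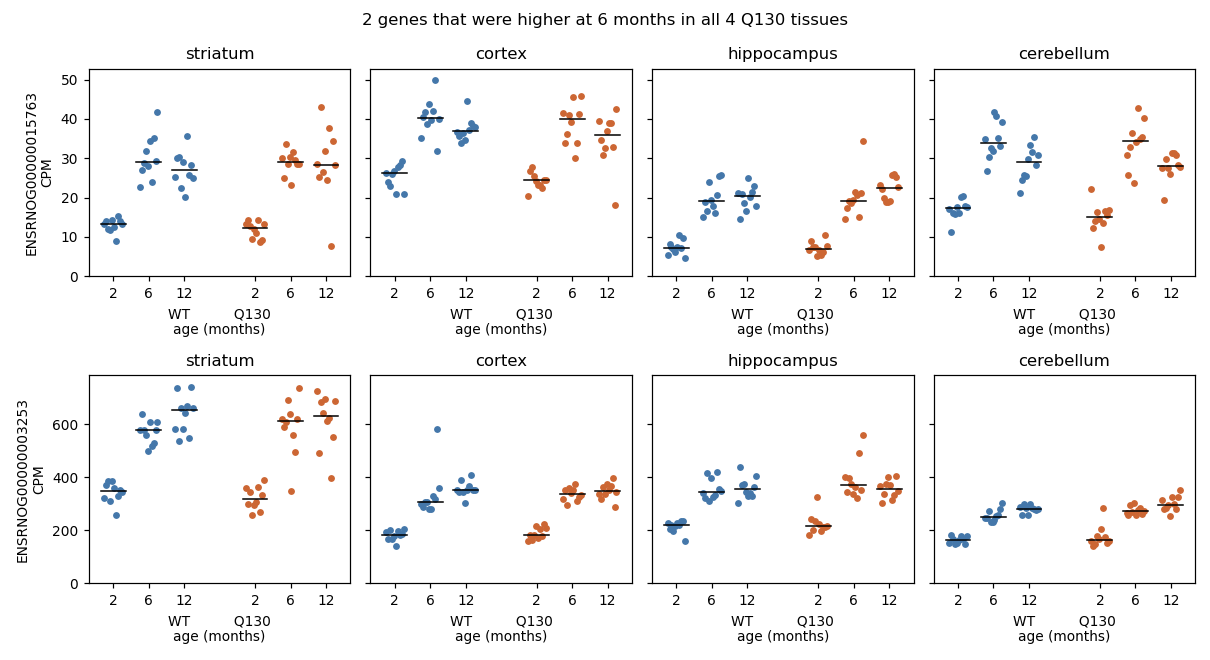
Each point is the CPM of 1 gene in 1 study library, ENSRNOG00000015763 above and ENSRNOG00000003253 below, by age in months within genotype (WT blue, Q130 orange) for 4 tissues; bars are medians of 10 libraries. In the Q130 striatum the median of ENSRNOG00000015763 went from 12.3 CPM at 2 months to 29.0 CPM at 6 months and stood at 28.4 CPM at 12 months.

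For 10 of the 152 genes the Q130 change differed between tissues, by edgeR's test of the age by tissue interaction with the animal as a block, against 2.71% of the 16652 genes tested. Of the 10, 6 changed most in striatum, 3 in cerebellum and 1, ENSRNOG00000015763, in hippocampus (adjusted p = 0.0031). Rank 73 rose by 0.75 in striatum and by 0.15 in cortex (edgeR adjusted p = 3.8e-05 and 0.034). Rank 107 had log2 fold changes of 0.77 in striatum and 0.02 in cerebellum, and rank 15 went the other way, with 0.62 in striatum and 1.34 in cerebellum. Without the libraries that stood apart, 33 of the 152 genes passed, among them the same 10, against 10.2% of all genes.

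No difference in the change between the sexes passed adjustment. In the summed counts 0 of the 152 genes, and 0 of 17742 genes, passed edgeR's test of the age by sex interaction. An unadjusted p under 0.05 was found for 23 of the 152 and 1019 of all genes, the larger share being among the 152. Medians of the difference between Q130 ages were 0.29 in females and 0.28 in males in striatum, 0.23 and 0.30 in cortex, 0.19 and 0.36 in hippocampus and 0.20 and 0.16 in cerebellum. Each of these compares 5 rats with 5, and the values of males include 1 striatal, 2 hippocampal and 2 cerebellar libraries that stood apart.

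Some of the genes with the largest WT differences were called in no Q130 tissue. Rank 1, which differed by 1.02 to 1.25 log2 units in the WT tissues, had Q130 log2 fold changes of 0.39 ± 0.19 in striatum, 0.33 ± 0.23 in cortex, 0.42 ± 0.24 in hippocampus and 0.38 ± 0.21 in cerebellum (SE, edgeR adjusted p = 0.22, 0.44, 0.52 and 0.33). Its level fell into separate ranges by animal. Averaged over the tissues of a rat, 29 of 60 rats lay between 33.0 and 46.6 CPM and 31 between 74.4 and 128 CPM, of which 2 were above 100 CPM and the others at or below 88.6, with no rat between 46.6 and 74.4.

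Both ranges were present at every age and in both genotypes. Rats below 55 CPM, a limit set in the gap after seeing it, numbered 7 of 10 at 2 months, 2 of 10 at 6 months and 5 of 10 at 12 months in the WT groups, and 7, 4 and 4 of 10 in the Q130 groups. The medians of the animal averages were accordingly 36.0 and 78.0 CPM in Q130 rats of 2 and 6 months, although the test did not pass. Within a rat the highest tissue was typically 1.22 to 1.32 times the lowest, by group medians of that ratio. The WT groups of 2 and 6 months thus differed in how many rats lay in each range.

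**Figure D4:**
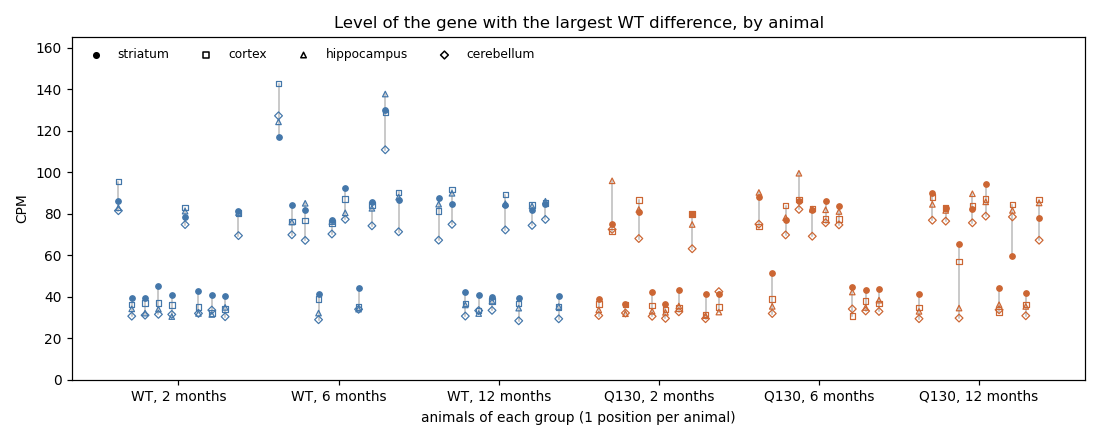
Each position is 1 rat and its 4 symbols are the CPM of the rank 1 gene in the 4 tissues of that rat, joined by a grey line, for WT (blue) and Q130 (orange) rats of 2, 6 and 12 months. Apart from 1 Q130 rat of 12 months whose striatum and cortex lie above 55 CPM and its other tissues below, the tissues of a rat lie on 1 side of 55 CPM, and 7 of 10 WT rats of 2 months but 2 of 10 of 6 months lie in the lower range.

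Rank 5 also varied by animal, with a share of its variance between animals (defined below) of 0.75. In Q130 striatum it lay between 10.01 and 22.5 CPM at 2 months and between 8.29 and 20.3 CPM at 6 months, with estimates of -0.08, -0.07, -0.06 and -0.25 in the 4 tissues where the WT differences had been 0.87, 0.71, 0.68 and 1.54. Rank 2 had a share of 0.90 and was also near the lower limit of level. It had 0 to 2.31 CPM in Q130 striatum at 2 months and 0.99 to 2.13 CPM at 6 months, and it was called in no Q130 tissue. Rank 3, by contrast, was higher by 0.73 in striatum, 0.54 in cortex and 0.71 in cerebellum (edgeR adjusted p = 0.011, 0.0084 and 1.8e-05), with 0.90 in hippocampus (adjusted p = 0.056).

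This spread was measured for all 152 genes in the Q130 libraries of 2 and 6 months, as the share of the variance within age, sex and tissue that lay between animals rather than between tissues of an animal. The share was above 0.5 for 22 of the 152 genes, or 14.5%, against 1.24% of the 11808 background genes. Without the animals of libraries that stood apart it was above 0.5 for 47 genes, or 30.9%, against 2.85%. It was above 0.5 for 15 of the 48 genes called in no Q130 tissue and for 7 of the 104 called in at least 1. Without those animals these became 22 of 48 and 25 of 104. The part of such differences between animals in the WT differences was not tested.

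In level the genes differed widely among themselves, and most were below the median background gene. Their median level in WT tissues at 2 months was 9.63 TPM, with a range of 0.757 to 782, against a median of 23.3 TPM for the background genes. Their within-group standard deviation in Q130 rats had a median of 0.24 log2 units, against 0.17. Their length, derived from the ratio of count to TPM, was 1.04 times that of the median gene, so length did not set them apart. Estimated counts that were not whole numbers (off by more than 1e-06) in most Q130 libraries of 2 and 6 months, which arise when reads are shared between genes, were found for 17.1% of the 152 genes and 12.4% of the background, and for 27.1% of the 48 genes called in no Q130 tissue. The levels of those genes are less certain.

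By the median over the 152 genes, the genotypes were close at every age. At 2 months the median over the 152 genes of the Q130 minus the WT group median was -0.00 log2 units in striatum and 0.04 in each other tissue. At 6 months it was -0.05, -0.03, -0.02 and -0.04 in striatum, cortex, hippocampus and cerebellum. In the same order, Q130 was above WT at 2 months for 75, 109, 102 and 104 of the 152 genes. The background shares were 53.2%, 54.4%, 53.3% and 56%. At 6 months Q130 was above WT for 46, 62, 66 and 55 of the 152, against 50.5%, 48.2%, 50% and 55% of the background genes. The WT libraries of these ages chose the genes, so these values carry no test.

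At 12 months, where neither genotype was used by the choice, the genotypes were compared by test. In striatum, cortex and hippocampus 0 of the 152 genes and 0 of all genes passed, that is 0% in each. An unadjusted p under 0.05 was found for 14, 11 and 9 of the 152 and for 1505, 618 and 716 of all genes. DESeq2 also called 0 of the 152 in these tissues, with 4, 0 and 1 of all genes. In cerebellum 2 of the 152 were higher in Q130 and 0 lower, against 0.863% and 0.705% of all genes. These were rank 46, at 0.28 ± 0.07 (log2, SE, edgeR adjusted p = 0.046), and rank 68, at 0.21 ± 0.05 (adjusted p = 0.046), and leaving out single libraries took the count of higher genes to between 0 and 3. The share of the 152 called higher, 1.32%, was near that of all genes, so these counts are not read as a result about the 152. DESeq2 called 5 higher and 2 lower (348 and 298 of all genes), and without Q130 female replicate 5 edgeR called 2 higher and 2 lower. Median log2 fold changes between genotypes were 0.02, 0.00, 0.00 and -0.00.

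Several of the 152 genes had wide estimates between genotypes at 12 months that rested on 1 rat. Rank 14 lay between 39.7 and 64.0 CPM in WT striatum and between 57.5 and 79.1 CPM in 9 Q130 libraries, but stood at 3337 CPM in male replicate 3, and its log2 fold change of 2.12 ± 0.83 (SE, adjusted p = 0.50) became 0.39 (adjusted p = 0.20) without the libraries that stood apart. Rank 23 likewise stood at 1173 CPM in that library and at no more than 26.3 CPM in the other Q130 striatum libraries. In the cortex library of the same rat, labelled male replicate 4, rank 14 stood at 915 CPM and rank 23 at 819 CPM, where the next highest Q130 libraries had 48.2 and 22.8 CPM.

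In that rat 16 of the 152 genes were more than 4-fold above the median of the other libraries of the group in striatum and 14 in cortex, and all 14 were among the 16. Of the background genes, 5.68% and 4.74% were as far above. In the 231 libraries that did not stand apart, at most 1 of the 152 genes was. These 14 genes thus varied together in 1 animal, and no marker of a cell type could be read for that library, since the identifiers carry no names.

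From 6 to 12 months age and batch change together and cannot be told apart. In Q130 cerebellum 32 of the 152 genes were higher at 12 than at 6 months and 3 lower, against 8.21% and 6.49% of all genes. In striatum 1 was higher, in cortex 0 and in hippocampus 0, and 0 were lower, against 1.6%, 0.818% and 0.0904% of all genes higher and 1.28%, 1.53% and 0.207% lower. By unadjusted p under 0.05, 30 of the 152 passed in cortex and 19 in hippocampus, beside 2908 of 15398 and 2826 of 15481 of all genes, shares close to the background in cortex and below it in hippocampus. DESeq2 called 2 higher and 1 lower in striatum (532 and 523 of all genes), 6 higher and 3 lower in cortex (382 and 545) and 3 higher and 0 lower in hippocampus (134 and 243). Without the libraries that stood apart the counts of higher genes were 23 in striatum (9.03% of all genes), 15 in cortex (2.94%) and 7 in hippocampus (2%), and 4 genes were lower in striatum (8.15%), 0 in cortex (4.76%) and 0 in hippocampus (2.1%). Striatal male replicate 3, cortical male replicate 4 and, at 6 months, hippocampal male replicate 5 alone took them to 12, 15 and 5. Any of 16 other single striatal libraries took that count from 1 to 0, and cortical counts were 1 without 12-month male replicate 1 or 2 and 2 without 6-month male replicate 2.

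The 3 cerebellar falls were ENSRNOG00000015763, described above, ENSRNOG00000023356 (rank 10) and ENSRNOG00000007041 (rank 139). ENSRNOG00000023356 lay between 57.8 and 89.2 CPM at 6 months (median 64.5) and between 50.98 and 63.5 CPM at 12 months (median 58.2), overlapping ranges, and its change was -0.19 ± 0.06 (log2, SE, edgeR adjusted p = 0.024). It was called in no Q130 tissue between 2 and 6 months, and its share of variance between animals was 0.81. Its estimated counts were mostly not whole numbers, so its level is among the less certain ones. ENSRNOG00000007041 lay between 7.68 and 15.6 CPM at 6 months (median 8.82) and between 5.69 and 9.42 CPM at 12 months (median 7.58), and its change was -0.35 ± 0.11 (log2, SE, adjusted p = 0.032). It did not pass without any one of 7 libraries, nor with limma-voom (adjusted p = 0.063).

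At 12 months the group medians of most of the genes were above those of 2 months. From 2 to 12 months, too, age and batch change together and cannot be told apart. The difference of group medians was above 0 in Q130 rats for 133 of the 152 genes in striatum, 135 in cortex, 136 in hippocampus and 136 in cerebellum, against 47.2%, 47.1%, 48.1% and 47.4% of the background genes, with medians of 0.37, 0.27, 0.24 and 0.28 log2 units. In WT rats, whose 2-month libraries chose the genes, it was above 0 for 138, 147, 146 and 143, against 50.4%, 48.5%, 51.2% and 52.1%. In Q130 rats it was at least 0.15 for 113, 111, 101 and 114 genes, against 23.1%, 12.5%, 11.5% and 15% of the background genes. Between 2 and 6 months the median difference in Q130 rats was 0.27, 0.25, 0.23 and 0.21. Between 6 and 12 months it was 0.07, 0.03, 0.03 and 0.07 in Q130 rats and -0.01, 0.02, 0.01 and 0.03 in WT rats. The choice used the WT libraries of 6 months and not the Q130 ones, so these values do not compare the genotypes.

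**Figure D5:**
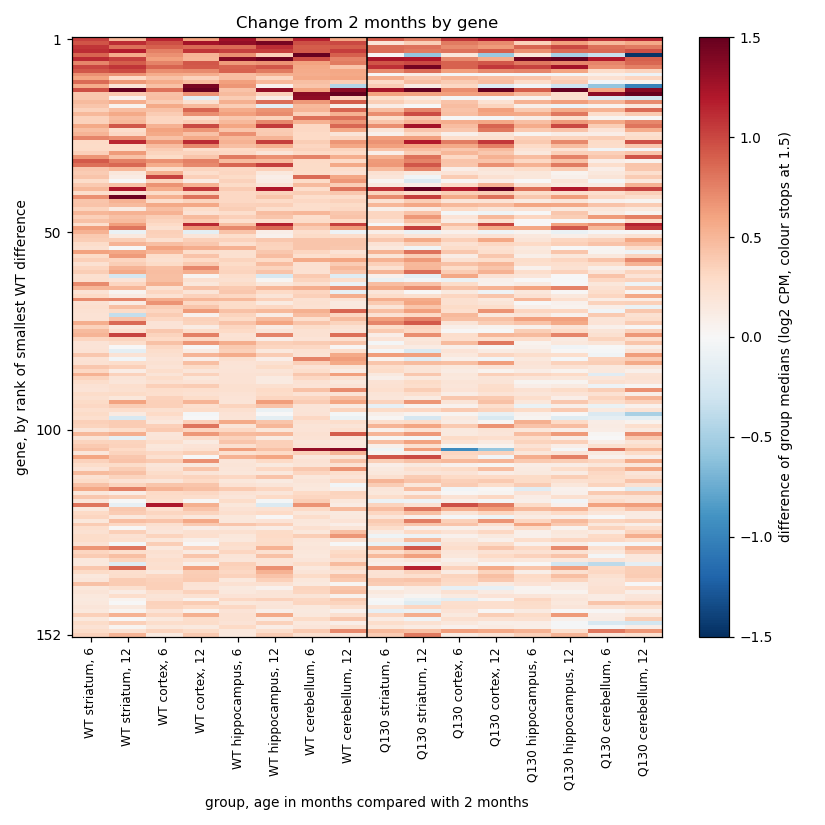
Each row is 1 of the 152 genes, ordered by rank from the largest smallest WT difference at the top, and each column is a genotype, tissue and age (6 or 12 months) with the difference of group medians from 2 months in colour (log2 CPM, red higher, blue lower, colours stopping at 1.5). WT columns of 6 months are red by choice. Columns of 12 months differ from 2 months in batch as well as in age. In the Q130 columns of 12 months 133, 135, 136 and 136 rows are above 0, and 113, 111, 101 and 114 are at least 0.15. Rows below that, such as rank 5, are pale or blue.

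The repeat libraries could not separate batch from age in the striatum. By the labels, 0 of the 152 genes were higher or lower in the repeats than in the first libraries of the 6 Q130 rats, where 0.0583% of all genes were higher and 0.706% lower. The median over the 152 was 0.10 on the log2 scale, and 13 of the 152 and 1551 of all genes had an unadjusted p under 0.05. Also by the labels, 0 of the 152 and 0% of all genes passed between the repeats of 6 and of 2 months, with 2 of the 152 and 263 of all at an unadjusted p under 0.05, whereas the first libraries of the same rats gave 47 higher, beside 388 of 15640 genes. Between the 12-month libraries and the repeats of 2 months 0 passed as well (0% of all genes), with 9 and 647 at an unadjusted p under 0.05. The library labelled as the repeat of a rat resembled other tissues of that rat best in only 2 of 12 cases, so no direction is drawn from these comparisons.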

How the data were processed

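RNA sequencing libraries of 4 tissues of 60 rats were used with groups from the labels. Per gene, the authors' deposited values were estimated counts (expected counts), which were rounded to whole numbers here, and a table named FPKM whose columns share 1 total, so the deposited values are on the TPM scale. The aligner, counting program and genome are unstated (not given in the sources used here); transcript tables were not used here. Per the labels' protocols, RNA was extracted with a Qiagen kit from frozen tissue. Columns were matched to samples by the identifiers in the labels; that columns written with dots hold the repeats is inferred from their names.

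Log2 CPM values used TMM and a prior count of 2. Tests used edgeR 4.0.16 in R 4.3.3 (filterByExpr, TMM, robust quasi-likelihood, sex as covariate), with Benjamini-Hochberg adjustment over all genes and a threshold of 0.05. DESeq2 1.42.0 and limma 3.58.1 (voom) served as alternatives. Fits were tested on simulated data. The genes, lists and tests were chosen with earlier results of these data known. None of the identifiers matched a symbol (0 of 32883), so the gene lists and cell type markers, written as symbols, could not be applied. The naming rule allowed more genes; because of this, 2 rising and 2 falling identifiers are named.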

Additional observations from a re-analysis of the deposited data

Results flagged for a closer look

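Single libraries lay far from the other 9 of their group, by Dixon's ratio of the gap to the range, in 15 of 76 groups examined, 24 of the mean of the 152 genes and 52 of the named genes. Chance alone flags about 1 in 20 groups. The mean of the 152 genes was highest in male 4 of the Q130 cortex at 12 months (4.04 log2 CPM, next 3.87) and in male 5 of the Q130 hippocampus at 6 months (4.09, next 3.85), both libraries that stood apart, and lowest in male 5 of the Q130 cerebellum at 12 months (3.78, next 3.83).

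ENSRNOG00000015763 was lowest in the 2 libraries of 1 Q130 rat of 12 months, striatum male 3 (7.63 CPM, next 24.6) and cortex male 4 (18.2, next 30.7). The gene was also far from the rest in WT cortex at 12 months (male 1, 44.5, next 38.9), Q130 hippocampus at 6 months (male 5, 34.5, next 21.5), WT cerebellum at 2 months (female 2, 11.2, next 15.9) and Q130 cerebellum at 12 months (female 2, 19.4, next 25.97). ENSRNOG00000003253 was highest in WT cortex at 6 months (male 4, 582 CPM, next 361), Q130 hippocampus at 2 months (female 5, 325, next 243) and Q130 cerebellum at 2 months (male 2, 283, next 205), and lowest in WT hippocampus at 2 months (male 5, 160.2, next 199). In Q130 cerebellum at 6 months, ENSRNOG00000023356 was highest in female 5 (89.2 CPM, next 69.0) and ENSRNOG00000007041 in female 1 (15.6, next 10.6).

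The change from 2 to 6 months differed between Q130 tissues for 10 of the 152 genes, by the interaction test given above.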

How the results depend on the processing

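Counts below are of the 152 genes called higher, in the order striatum, cortex, hippocampus, cerebellum, and are given where they moved by more than 1.5 times. From 2 to 6 months in Q130 rats, males alone gave 4, 25, 0 and 3 (16, 121, 1 and 21 of all genes). Females alone gave 21 in cortex, 4 in hippocampus and 24 in cerebellum (77, 17 and 245 of all genes). These fits had 5 rats per age. In females alone 1 of the 152 genes was lower in cerebellum, beside 309 of all genes. DESeq2 gave 45 in hippocampus (263 of all genes), and the repeat columns in place of the first ones gave 0 in striatum (0 of all genes). Fits without libraries that stand apart gave 47 in hippocampus and 74 in cerebellum (310 and 1153 of all genes). In all 4 tissues 31 were called without libraries that stand apart, and 33 differed between tissues. The replicate numbers did not pair the rats (0 to 2 of 10 pairs correlated above 0.1). A replicate block gave 67, 68, 9 and 24 from 2 to 6 months (521, 472, 23 and 237 of all genes). For genotypes at 12 months it gave 0, 0, 0 and 1 (0, 0, 0 and 54 of all genes). Between genotypes in cerebellum at 12 months DESeq2 gave 5 and no filter on low counts 0 (348 and 57 of all genes), with 0 to 3 on leaving out each library. From 6 to 12 months, DESeq2 gave 2 in striatum, 6 in cortex and 3 in hippocampus (532, 382 and 134 of all genes). Limma-voom gave 0 in striatum and 1 in cortex (215 and 122 of all genes), and no filter 0 in striatum (149 of all genes). Fits without libraries that stand apart gave 23, 15 and 7 (1403, 454 and 311 of all genes). Leaving out each library in turn gave 17 to 46 in hippocampus from 2 to 6 months, and from 6 to 12 months 0 to 12, 0 to 15 and 0 to 5, with 1 to 5 genes lower in cerebellum (1 without 6-month male 2 or 5 or 12-month male 5, and 5 without 6-month female 3 or 12-month male 4). The first libraries of the 6 repeated rats gave 47 in striatum, an alternative chosen after seeing the data, like the fits over 4 tissues without libraries that stand apart. A threshold of 0.10 chose 302 genes and one of 0.20 chose 92. Without the 1 WT library that stood apart the rule chose 156 genes, 144 of them shared. Of 310 alternative fits of the named genes 295 kept direction and call, 15 kept direction only and 0 reversed. Where calls were lost, the cause was not tested. Precision is limited by 10 rats per group.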

Other observations

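The labels of the repeat libraries were checked with 200 genes chosen for each tissue, none of the 152. These genes had the largest share of variance between animals in the other tissues. Over these genes 236 of the 240 study libraries correlated best with the other tissues of their own rat, with a median correlation of 0.907. Of the 4 that did not, 3 were among the libraries that stood apart. Of the 12 repeats only 2 correlated best with the rat in their label. The other 10 correlated best with a different one of the 12 repeated rats, at 0.856 to 0.930 over all 12, and with their labelled rat at -0.39 to 0.78. The 12 best matches were 12 different rats, and in 4 cases the matched rat had another age than the label.

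The mean of the 152 genes in a repeat differed from the first library of its labelled rat by -0.34 to 0.45 log2 units. From the first library of the best-matched rat it differed by -0.04 to 0.06 log2 units. No library was moved to another group on this basis.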
